A study of Mus musculus with 5 samples.

Results

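The non-collagen matrix genes of activated fibroblasts and pancreatic stellate cells followed in mouse pancreas were Fn1, Tnc, Postn, Thbs1, Lox and Serpine2. They were taken by gene symbol, and all 6 were found among the 1457 genes of the deposited table. The groups were pancreas from female C57BL/6 mice aged 8 weeks. Of the 5 libraries, 2 came from miR-21-/- mice (knockout, KO; replicates 1 and 3) and 2 from wild-type mice (WT; replicates 1 and 2), all given repeated injections of 50 µg/kg caerulein and sampled 24 h after the first. The remaining library came from wild-type pancreas after saline. Caerulein is an analogue of the gut hormone cholecystokinin, and repeated injections of it induce acute pancreatitis. The knockout has no saline library, so its level before caerulein is not known, and how the miR-21 allele was made or in which cells it is lost is not given in the labels. MiR-21 is not among the genes analysed here, so its loss could not be checked in these libraries. Nothing in the labels says that each library is a separate animal, so the p-values rest on the spread between these libraries, which may be technical. In the fitted model this spread is drawn toward that of all tested genes and is not each gene's own.

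The extracellular matrix is the scaffold that cells secrete around themselves. In injured pancreas, stellate cells that store vitamin A when quiescent turn into contractile, fibroblast-like cells and lay down collagen together with adhesive glycoproteins, enzymes that cross-link the fibres, and inhibitors that hold back proteases. Fibronectin (Fn1) and tenascin-C (Tnc) form the provisional matrix of wounds, periostin (Postn) and thrombospondin-1 (Thbs1) regulate how cells adhere and how growth factors are released, lysyl oxidase (Lox) cross-links collagen and elastin, and protease nexin-1 (Serpine2) inhibits thrombin, urokinase and trypsin-like proteases. Quiescent stellate cells make little of these products. The RNA here is that of whole pancreas, and other cells also make some of these products, fibronectin and thrombospondin-1 being made by macrophages and endothelial cells and thrombospondin-1 by megakaryocytes too. In such bulk RNA a larger number of cells of a type and more RNA per cell cannot be told apart.

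The microRNA missing from the knockout is shown with its seed, bases 2 to 8 from the 5′ end, in capitals, since pairing of the seed with a 3′ UTR is the usual mark of a microRNA target (RefSeq, GRCm38.p6, chr11:86584120-86584141, minus strand).
mmu-miR-21a-5p: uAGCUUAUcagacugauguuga
The complement of this seed, ATAAGCT, was searched on the sense strand in the longest annotated 3′ UTR of each gene (GENCODE vM21, GRCm38). It occurred once in Postn and in no other of the 6 genes, whose 3′ UTRs were 648 to 3160 bases long. Of 20979 genes with a 3′ UTR 7.14% held it. The Postn match began 545 bases after the stop codon, in a 3′ UTR of 738 bases (chr3:54390844-54390850, plus strand), and is in capitals in its surroundings.
Postn 3′ UTR: gatgattgtcATAAGCTtcttgcaata
These letters describe the sequence and do not show that the microRNA acts on it.

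Promoters are printed for Postn, Tnc and Serpine2, the 3 members with an entry in the promoter table used, to show the letters before genes that all rose against saline. Each sequence is the 250 bases just before a transcription start (RefSeq, GRCm38.p6), read on the gene's strand. Capitals mark matches, on either strand, to letters searched for in all 3: TGANTCA for AP-1, TGACGT for the core of the cAMP response element, CAGAC for SMAD proteins, GGAATG for TEAD, GGGCGG for Sp1, TATAA for the TATA box, and the CArG box of serum response factor. Postn lies at chr3:54360857-54361106 on the plus strand, Tnc at chr4:64046937-64047186 on the minus strand and Serpine2 at chr1:79858666-79858915 on the minus strand.
Postn: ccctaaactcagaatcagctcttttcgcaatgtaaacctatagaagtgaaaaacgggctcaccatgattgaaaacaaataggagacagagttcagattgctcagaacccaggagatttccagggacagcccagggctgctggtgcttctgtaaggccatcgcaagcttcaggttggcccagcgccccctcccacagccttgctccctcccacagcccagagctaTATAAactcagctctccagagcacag
Tnc: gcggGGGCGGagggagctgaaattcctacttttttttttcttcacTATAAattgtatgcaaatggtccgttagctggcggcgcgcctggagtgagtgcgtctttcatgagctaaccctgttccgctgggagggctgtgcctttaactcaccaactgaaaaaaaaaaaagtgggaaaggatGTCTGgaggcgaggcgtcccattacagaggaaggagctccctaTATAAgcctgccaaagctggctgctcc
Serpine2: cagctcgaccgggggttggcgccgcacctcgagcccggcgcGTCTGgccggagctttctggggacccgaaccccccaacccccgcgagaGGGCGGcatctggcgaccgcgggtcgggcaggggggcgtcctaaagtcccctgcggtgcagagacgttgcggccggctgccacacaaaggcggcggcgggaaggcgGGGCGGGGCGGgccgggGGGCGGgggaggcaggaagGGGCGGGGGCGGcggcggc
Postn and Tnc each have another entry, not printed: that of Postn held 1 SMAD match and no TATA box match at a GC content of 40.4%, and that of Tnc held 1 Sp1 match and 1 TATA box match, the TATA match beginning 126 bases upstream. Which entries to print was chosen with their matches known. The printed Postn and Tnc windows each held TATAA close to the start, beginning 26 and 27 bases upstream, and Tnc held a second one farther away. The Serpine2 window held no TATAA but 6 matches to GGGCGG, of which 2 overlap by 1 base, and had a GC content of 78.8%, against 52% for Postn and 51.2% for Tnc. Over 32851 promoter windows of the same length 22.8% held TATAA, 32.7% held GGGCGG and 42.2% held CAGAC. None of these 3 windows held the AP-1, TEAD or CArG letters or TGACGT, which says nothing about whether the factors bind elsewhere.

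The values behind all results are 1 number per gene and library whose unit is not stated, so a gene's level is compared between libraries and not with that of another gene. Sums over a list weight its genes by this unknown unit, and for genes at 0.01 in saline a difference from saline on the log scale follows their caerulein level. The rows of the table run down by how far WT caerulein exceeded saline, and for every row a caerulein library departed from saline by 2.528-fold or more. A test against saline therefore describes genes from a table that holds no gene close to saline throughout, and the 6 members stand among its rows 2 to 564 of 1457. The lowest value in the table is 0.01, at which 37.1% of the genes stand in the saline library and 2.1% to 6.1% in the caerulein libraries. Each caerulein library most resembled 1 of the other genotype: over 1429 genes, which share these libraries and are not replicates, Spearman's rho was 0.73 between KO replicate 3 and WT replicate 1 and 0.74 between KO replicate 1 and WT replicate 2, against 0.45 between the 2 KO libraries and 0.35 between the 2 WT libraries. The other pairs across genotypes were at 0.45 (KO replicate 1 and WT replicate 1) and 0.42 (KO replicate 3 and WT replicate 2). The labels give no batch for them.

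Fibronectin RNA was listed at the lowest value in saline and was present in all caerulein libraries. Fn1 stood at 26.42 and 8.08 in KO caerulein replicates 1 and 3, at 75.92 and 21.04 in WT caerulein replicates 1 and 2, and at 0.01 in saline. WT replicate 1 was far above the others and KO replicate 3 was the lowest caerulein library, while KO replicate 1 lay above WT replicate 2, so the genotypes overlapped.

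Tenascin-C, a glycoprotein of healing wounds that is scarce in most adult tissues, was measurable at a low value in saline. Tnc was 6.31 and 22.06 in KO caerulein replicates 1 and 3, 44.76 and 19.25 in WT caerulein replicates 1 and 2, and 0.46 in saline. Here KO replicate 1 was the low library, which is the reverse of Fn1, and the genotypes again overlapped. The KO mean was 30.8 times and the WT mean 69.6 times the saline value.

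Periostin, a protein that promotes collagen fibre assembly and cross-linking, had nearly equal values in both knockouts. Postn was 32.83 and 32.67 in KO caerulein replicates 1 and 3, 78.38 and 18.54 in WT caerulein replicates 1 and 2, and 0.33 in saline. Both KO libraries lay between the 2 WT libraries, which differed from each other by 4.23-fold. The KO mean was 99.2 times and the WT mean 147 times the saline value.

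Thrombospondin-1, a matricellular protein that can release transforming growth factor beta from its latent form, was the only one of the 6 genes whose genotypes did not overlap. Thbs1 was 8.51 and 5.34 in KO caerulein replicates 1 and 3, 25.41 and 12.55 in WT caerulein replicates 1 and 2, and 0.01 in saline. Every KO library was thus below every WT library, as was so for 4.55% of the 1429 genes tested.

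Lysyl oxidase, the copper enzyme that cross-links collagen, followed periostin. Lox was 21.58 and 24.01 in KO caerulein replicates 1 and 3, 57.44 and 10.71 in WT caerulein replicates 1 and 2, and 0.01 in saline. As for Postn, the KO libraries were close to each other and lay between the WT libraries, which differed by 5.36-fold.

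Serpine2, which encodes a serpin that binds heparan sulfate and is active against thrombin and trypsin-like proteases, was the only one of the 6 genes with WT replicate 1 below WT replicate 2. It was 46.22 and 24.62 in KO caerulein replicates 1 and 3, 23.93 and 43.74 in WT caerulein replicates 1 and 2, and 0.01 in saline. KO replicate 1 and WT replicate 2 were high, and KO replicate 3 and WT replicate 1 were low. The genotype means, 35.42 ± 15.27 in KO and 33.84 ± 14.01 in WT (SD, n = 2 each), differed by less than either SD.

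**Figure D1:**
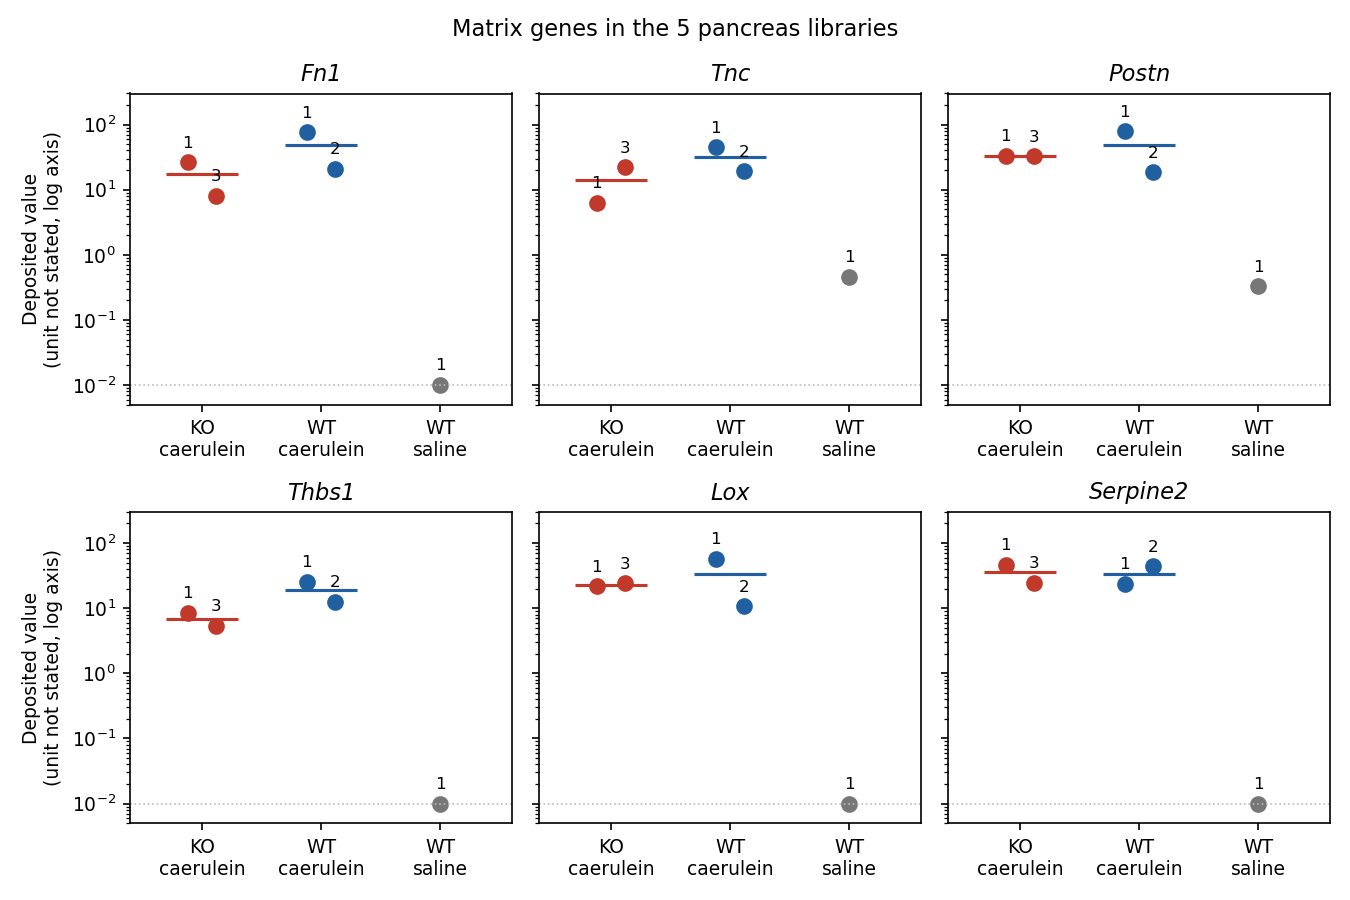
Deposited values (log axis, unit not stated) of the 6 matrix genes in KO caerulein, WT caerulein and WT saline pancreas; each point is 1 library with its replicate number, lines are means of 2 libraries, and the dotted line is the lowest value, 0.01. Every caerulein library is above saline for all 6 genes, 4 of which stand at 0.01 in saline, and only Thbs1 has both KO points below both WT points.

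Against saline, all 6 matrix genes rose in the miR-21 knockout given caerulein. Both KO libraries were above saline for each of them, as for 94.2% of the tested genes. On the log2(value + 1) scale the difference was 5.11 (SE 1.05) for Serpine2, 4.67 (SE 1.06) for Postn, 4.56 (SE 1.06) for Lox, 3.97 (SE 1.06) for Fn1, 3.15 (SE 1.04) for Tnc and 2.94 (SE 1.01) for Thbs1. This scale understates changes of low values, and no fold is given for the 4 genes at 0.01 in saline. A limma linear model over all 5 libraries gave adjusted p-values between 0.000137 for Serpine2 and 0.0111 for Thbs1 (Benjamini-Hochberg over 1429 genes). The model called 60.3% of all tested genes higher, so that 6 of 6 is read against a high background. The median difference over all tested genes was 2.80, which Serpine2 exceeded by 2.31 and Thbs1 by 0.14. Without KO replicate 1 the calls of all 6 genes were lost, as were most of those over all tested genes. The differences were then 4.66 for Postn and Serpine2, 4.63 for Lox, 3.98 for Tnc, 3.17 for Fn1 and 2.65 for Thbs1. Their SEs were larger, at 1.35 to 1.51. Without KO replicate 3 the call of Tnc was lost, at a difference of 2.32 (SE 1.30).

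All 6 matrix genes also rose in wild-type pancreas given caerulein, with both libraries above saline, as for 89.2% of the tested genes. The difference from saline was 5.35 (SE 1.06) for Fn1. Serpine2 was at 5.05 (SE 1.05), Postn at 4.89 (SE 1.06) and Lox at 4.69 (SE 1.06). Tnc was at 4.38 (SE 1.04) and Thbs1 at 4.23 (SE 1.01). The order of the genes depends on the settings: with a pseudocount of 0.1 the WT difference was 7.35 for Thbs1 and 6.47 for Postn, and with equal library sums 3.92 for Thbs1 and 3.13 for Postn. The limma adjusted p-values ran from 0.000116 for Fn1 to 0.0006 for Thbs1, and 57.3% of all tested genes were called higher. The median difference of the 6 genes was 4.26 in the knockout and 4.79 in the wild type, where the medians over all tested genes were 2.80 in the knockout and 2.71 in the wild type. Both comparisons share the 1 saline library, which has no replicate and is assumed to vary like the caerulein libraries. With quantile normalization, which forces the saline library to match the others, 0 of 6 passed in either comparison.

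After caerulein, no matrix gene passed the test between the knockout and the wild type. The deposited values of Fn1, Thbs1, Tnc, Postn and Lox had lower means in the knockout, and that of Serpine2 did not. Fn1 averaged 17.25 ± 12.97 in KO and 48.48 ± 38.81 in WT, Thbs1 6.92 ± 2.24 in KO and 18.98 ± 9.09 in WT, and Tnc 14.18 ± 11.14 in KO and 32.00 ± 18.04 in WT (SD, n = 2 each). The KO means were thus 0.356, 0.365 and 0.443 times the WT means. For Postn and Lox they were 0.676 and 0.669 times, and for Serpine2 1.05 times. The fitted log2 differences were −1.38 (SE 0.87, 95% interval −3.08 to 0.31) for Fn1, −1.28 (SE 0.83, −2.91 to 0.34) for Thbs1 and −1.23 (SE 0.85, −2.89 to 0.44) for Tnc, each with limma adjusted p = 0.9997. From the highest difference down, these 3 ranked 1412, 1408 and 1405 of 1429 genes.

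For the other 3 genes the intervals were as wide but centred near 0. Postn differed by −0.22 (SE 0.86, 95% interval −1.91 to 1.47), Lox by −0.14 (SE 0.86, −1.83 to 1.56) and Serpine2 by 0.06 (SE 0.86, −1.63 to 1.74), again with limma adjusted p = 0.9997. These intervals take in changes of more than 2-fold either way, so they do not show that the levels were alike. The sign for Serpine2 turned with quantile normalization, equal library sums and median-ratio scaling, and without KO replicate 1 or WT replicate 1. Those for Postn and Lox turned to 0.79 and 1.02 without WT replicate 1. In all, 5 of the 6 genes had a difference below 0, against 41.1% of all tested genes. The median of the 6 was −0.73, and that of all tested genes was 0.10. With a library left out the median of the 6 was −0.39 (KO replicate 1), −0.40 (KO replicate 3), −0.42 (WT replicate 1) or −1.53 (WT replicate 2). The medians of all tested genes in these fits were 0.01, 0.15, 0.50 and −0.33, in the same order. Limma called 0 of 1429 genes in this comparison, and 7 (0.49%) had an unadjusted p under 0.05, with 0 of the 6 among them. With 2 libraries against 2, an exact two-sided permutation test of a single gene cannot go below p = 0.333.

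**Figure D2:**
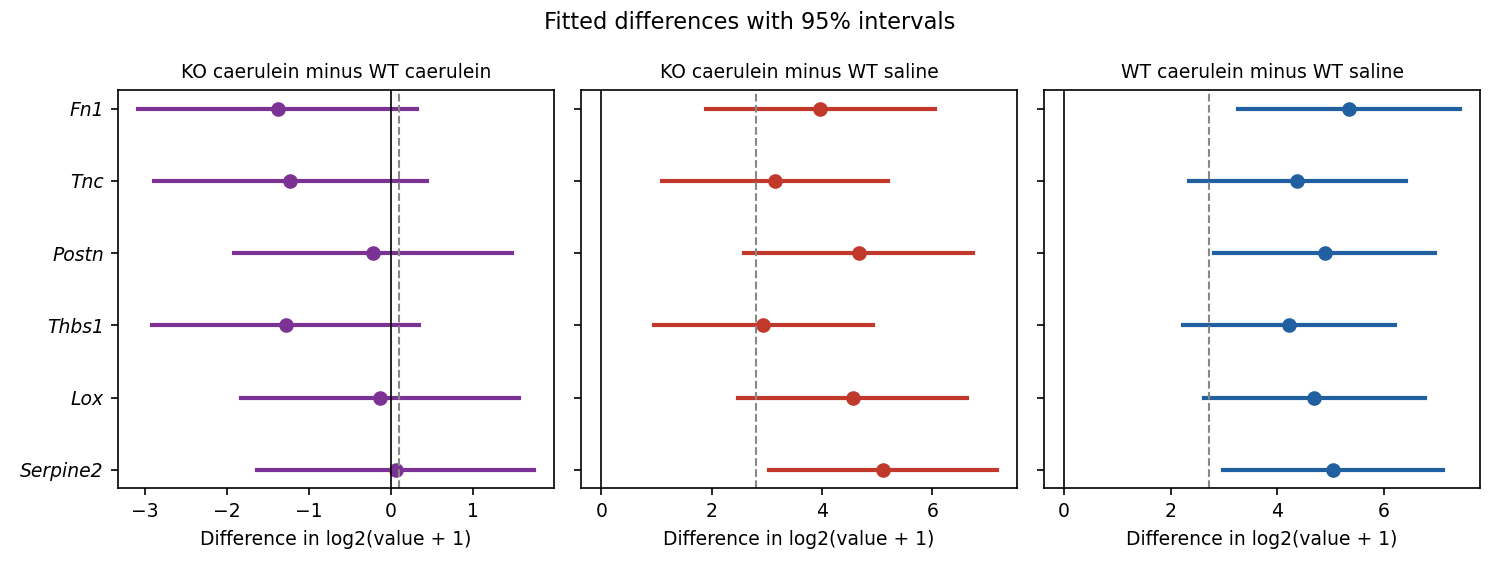
Fitted differences in log2(value + 1) for the 6 matrix genes in the 3 comparisons, with 95% intervals from limma; the dashed lines mark the median of all 1429 tested genes, and each panel has its own scale. All intervals against saline lie above 0, and all 6 intervals between KO and WT caerulein take in 0.

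Set side by side by resembling libraries, the genes with lower KO means did not behave in the same way. Fn1 in KO replicate 3 was 0.106 times its value in WT replicate 1, but in KO replicate 1 it was 1.26 times that in WT replicate 2. Thbs1 was lower in the knockout in both of these pairs, at 0.21 and 0.678 times the WT value in the same order. So was Tnc, at 0.493 and 0.328 times. Postn and Lox turned with the pair, at 0.417 and 0.418 times WT in the first pair and at 1.77 and 2.02 times in the second. Serpine2 was at 1.03 and 1.06 times WT. This pairing was chosen after the values were seen. With it as a block in the fit, limma called 0 of the 6 genes.

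The 6 genes did not move as one among the 4 caerulein libraries. WT replicate 1 held the highest value of 5 of the 6 genes, as it did for 43.7% of all tested genes. After each gene's own mean was subtracted, that library stood at 1.59 for Fn1, 1.20 for Tnc, 1.12 for Postn and Thbs1 and 1.23 for Lox on the log2 scale, against a median of 0.41 over all tested genes, and at −0.45 for Serpine2. The lowest library differed between genes: KO replicate 3 for Fn1 and Thbs1, KO replicate 1 for Tnc, WT replicate 2 for Postn and Lox, and WT replicate 1 for Serpine2. Between the 2 WT libraries Lox, Postn and Fn1 differed by 2.32, 2.02 and 1.80 log2 units, where the median over all tested genes was 1.11. Between the 2 KO libraries Postn and Lox differed by 0.01 and 0.15, against a median of 0.81.

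**Figure D3:**
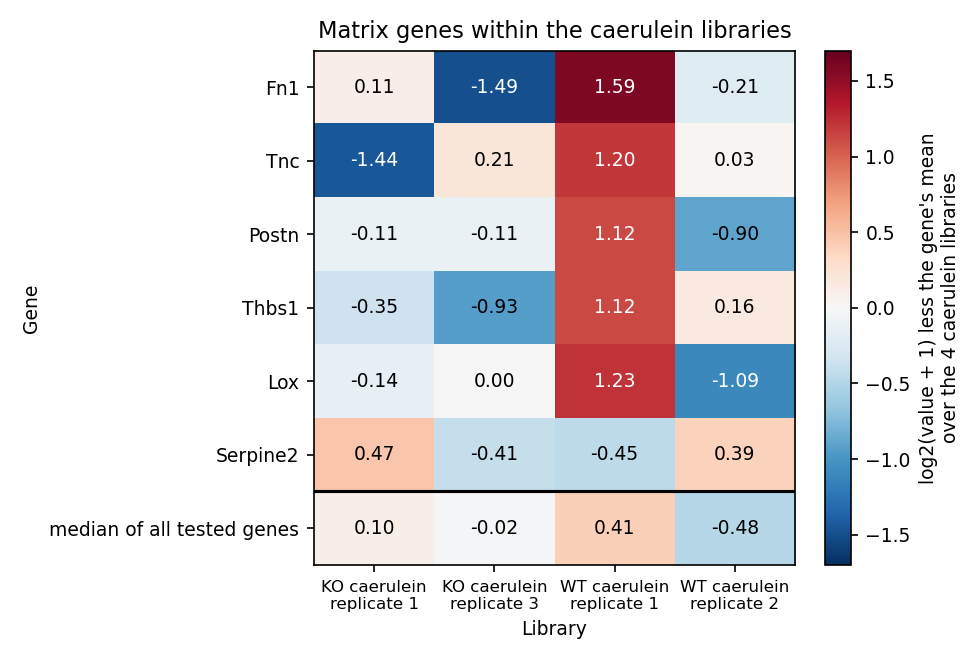
Values of log2(value + 1) less each gene's mean over the 4 caerulein libraries, for the 6 matrix genes and, in the bottom row, the median over all 1429 tested genes. WT replicate 1 is the highest library for 5 genes and the lowest for Serpine2, which is highest in KO replicate 1.

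Over all 5 libraries, Postn and Lox had the most similar profiles of any 2 of the 6 genes. The root mean square difference between their centred log2 profiles was 0.128, where the next pair, Fn1 and Thbs1, was at 0.599 and the least similar pair, Tnc and Serpine2, at 1.29. Each of Postn and Lox was also the nearest of all tested genes to the other. After these, Postn was nearest to Trf, which encodes transferrin, at 0.219 and to Glrx3, a glutaredoxin, at 0.264. Lox was nearest to Rps16, a ribosomal protein gene with near-identical copies and so of uncertain value, at 0.218 and to Sdcbp, which encodes the adaptor syntenin, at 0.251.

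The other members had their nearest genes outside the 6, except that Fn1 was closest to Thbs1. For Fn1 the next were Siglec1, a sialic acid-binding receptor of macrophages, at 0.618 and Thbs2, thrombospondin-2, at 0.643, so no gene had a profile very close to it. Thbs1 was nearest to Lta4h, which makes leukotriene B4, at 0.214, and Tnc to Rgs5, a regulator of G protein signalling in pericytes, at 0.319. Rgs5 stood at 6.31 and 15.69 in KO caerulein replicates 1 and 3, at 22.56 and 11.16 in WT caerulein replicates 1 and 2 and at 0.01 in saline. Serpine2 was nearest to Gpx2, a glutathione peroxidase of epithelia, at 0.127, Casp8, an initiator caspase, at 0.185 and Zfp36l1, an RNA-binding protein that destabilizes messenger RNAs, at 0.227. Closest to the mean profile of all 6 were Adam9, a membrane metalloprotease, at 0.244, Mfsd1 at 0.269, Col4a2, a chain of basement membrane collagen, at 0.279, Slc39a1, a zinc transporter, at 0.283 and Siglec1 at 0.284. These distances rest on 5 libraries, are dominated by the gap between saline and caerulein and carry no test.

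Other genes of the matrix pathway were measured in part, 42 of the symbols listed besides collagens. Against saline 29 of the 42 rose in the knockout and 28 in the wild type, where 60.3% (KO) and 57.3% (WT) of all tested genes did, and between the genotypes 0 passed. The KO count fell when either KO library was left out, as did the count over all tested genes. Counts of the lists that follow are read against the same shares. Among other matrix proteins, 20 of 76 listed symbols were measured, of which 13 rose in the knockout and 11 in the wild type, close to the shares of all tested genes. Tgfbi, an adhesive protein induced by transforming growth factor beta, was at 69.88 and 56.99 in KO caerulein replicates 1 and 3, 76.09 and 38.24 in WT caerulein replicates 1 and 2, and 0.70 in saline. Thbs4, a thrombospondin of tendon and muscle, was at 34.6 and 43.98 in KO, 31.15 and 48.3 in WT, and 0.27 in saline. Both rose in both genotypes, as did Eln, which encodes the Lox substrate elastin, with differences of 3.14 (SE 1.09) in the knockout and 3.32 (SE 1.09) in the wild type. The collagen-binding proteoglycans Fmod and Ogn also rose in both, while Sparcl1 passed in the knockout (2.80, SE 1.08; limma adjusted p = 0.0219) and had a difference of 2.15 (SE 1.08; limma adjusted p = 0.0736) in the wild type. The median difference between the genotypes was 0.07 for these 20 genes.

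Of the genes that act with Lox on collagen, those measured rose. Of 31 listed for cross-linking, folding and processing, 5 were measured and 5 rose in each genotype, beside 60.3% (KO) and 57.3% (WT) of all tested genes: Loxl2, a lysyl oxidase relative, Plod1, a lysyl hydroxylase, P4ha2, a prolyl hydroxylase subunit, Adamts2, which trims procollagen, and Crtap, a prolyl 3-hydroxylation cofactor. Loxl2 ran opposite to Lox in the wild type, with 20.74 and 22.85 in KO caerulein replicates 1 and 3, 11.31 and 26.97 in WT caerulein replicates 1 and 2, and 0.62 in saline. Plod1 had the order of Lox in all 5 libraries, with 16.95 and 18.05 in KO, 30.31 and 7.56 in WT, and 0.01 in saline. So did Col5a2, Col3a1, Krt8 and Prss3, and the order is thus not particular to genes that act on collagen. Of the collagens themselves 11 were measured, and 8 rose in each genotype, Col3a1, Col5a2 and Col14a1 among them. The fibrillar chain Col5a2 was 26.87 and 41.07 in KO caerulein, 70.38 and 22.17 in WT caerulein and 0.01 in saline. The median difference of the 11 between the genotypes was −0.23.

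Of the serine protease system in which Serpine2 acts, only Plat and Slpi were measured of 27 symbols. Plat, tissue plasminogen activator, was 23.04 and 11.65 in KO caerulein replicates 1 and 3, 20.74 and 12.3 in WT caerulein replicates 1 and 2, and 0.01 in saline, and rose in both genotypes. Slpi, an inhibitor of leukocyte elastase, was 3.72 and 7.54 in KO, 10.19 and 0.01 in WT, and 2.26 in saline and passed in neither. The 5 measured genes of the metalloprotease list, Timp3, Adam9, Adam10, Adam12 and Mmp15, rose in both genotypes. Prss3, a trypsinogen, was 150.18 and 289.84 in KO, 384.9 and 6.97 in WT, and 1.90 in saline, so that WT replicate 2 was low for it and high for Serpine2; its paralogs make its value uncertain.

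Receptors that bind these matrix proteins were measured for 8 of 36 symbols, and 4 rose in the knockout and 5 in the wild type, near the 60.3% (KO) and 57.3% (WT) of all tested genes. Sdc1, a heparan sulfate proteoglycan, Cd47 and Cd36, both receptors of thrombospondin-1, and Sdc2 rose in both. Cd47 was at 45.26 and 35.36 in KO caerulein replicates 1 and 3, 50.27 and 12.63 in WT caerulein replicates 1 and 2, and 0.14 in saline. Cd44, a hyaluronan receptor, had a difference from saline of 1.49 (SE 1.10; limma adjusted p = 0.216) in the knockout and passed in the wild type (2.41, SE 1.10; limma adjusted p = 0.0489); the difference between the genotypes did not pass. Lrp1, which takes up complexes of Serpine2 and also Thbs1, was 3.16 and 6.91 in KO, 20.99 and 5.33 in WT, and 2.83 in saline and passed in neither. Itgav, an integrin chain that binds fibronectin and periostin, was at 2.97 and 5.42 in KO, 13.05 and 1.45 in WT, and 0.01 in saline; it was looked up for this role after its values were seen. Of 31 symbols for transforming growth factor beta signalling, Smad4 rose in both genotypes and Smurf1 in neither, and no other was measured.

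**Figure D4:**
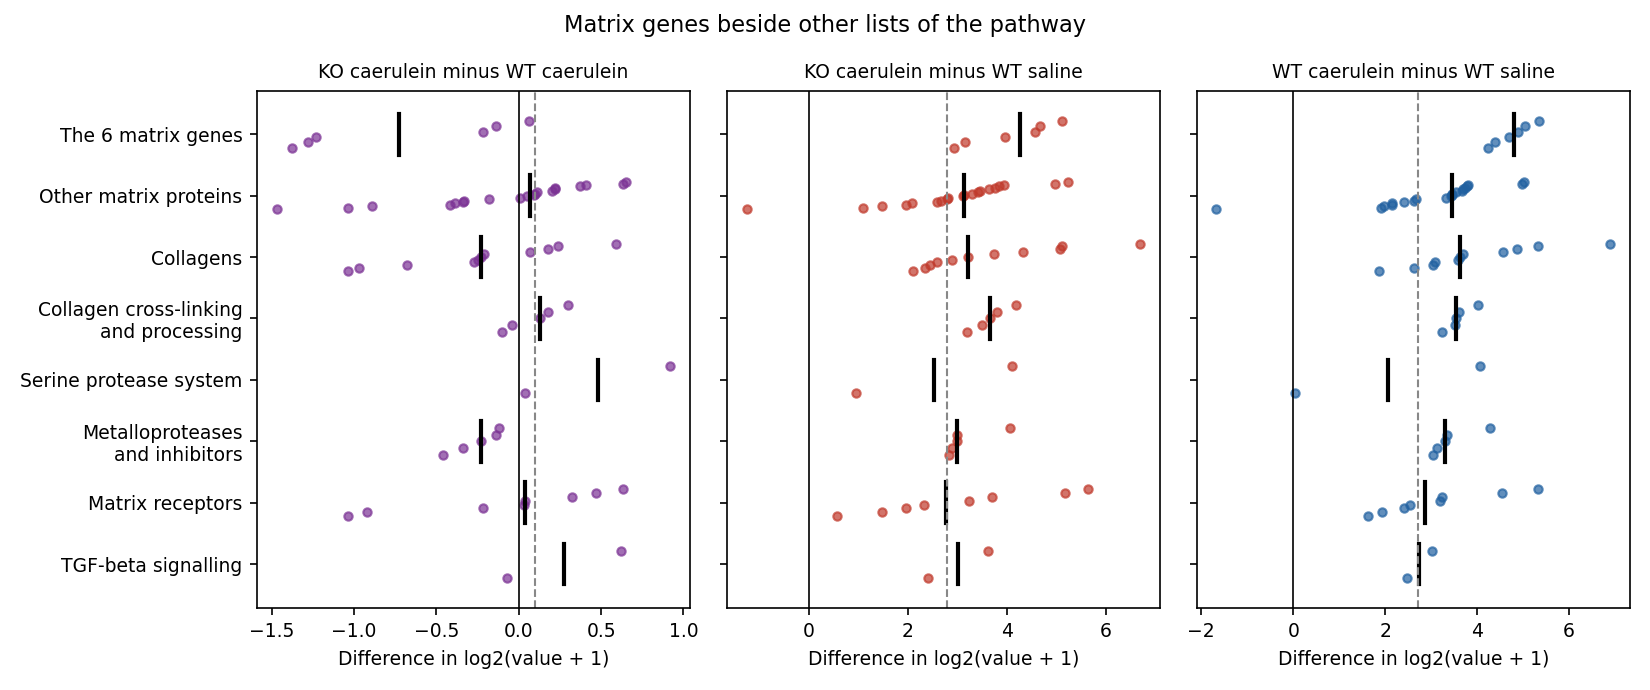
Fitted differences in log2(value + 1) for the 6 matrix genes and the measured genes of 7 other lists in the 3 comparisons; each point is 1 gene, black bars are list medians, dashed lines are medians of all tested genes, and each panel has its own scale. The lists against saline lie mostly above 0, and between KO and WT caerulein 3 of the 6 matrix genes are below −1. Some genes of the other lists are below −1 there too, the lowest at −1.47.

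The label of activated stellate cells could be checked in part only. Of 21 symbols for stellate cells and fibroblasts 5 were among the analysed genes: Pdgfra, Pdgfrb, Rgs5, Fap and S100a6. Acta2, the usual mark of the activated cell, and Des and Vim, also of that list, were not analysed here. Of the 5, 3 rose in each genotype, which is about the share of all tested genes (60.3% in KO, 57.3% in WT). Their values summed to 25.76 and 47.32 in KO caerulein replicates 1 and 3, 70.19 and 24.18 in WT caerulein replicates 1 and 2, and 1.66 in saline. WT replicate 1 was thus the highest, as it was for 5 of the 6 matrix genes and for 43.7% of all tested genes. Fap was instead highest in KO replicate 3, at 7.67 and 11.45 in KO, 8.1 and 2.22 in WT, and 0.01 in saline. Pdgfrb, the receptor of platelet-derived growth factor on mesenchymal cells, was at 5.94 and 6.81 in KO, 13.53 and 4.94 in WT, and 0.01 in saline.

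Genes of other cell types differed between the same libraries, and their part in the results was not tested. The 7 measured of 26 monocyte and macrophage genes summed to 180.07 and 185.6 in KO caerulein replicates 1 and 3, 265.49 and 104.36 in WT caerulein replicates 1 and 2, and 1.94 in saline, and Emr1 and Mrc1 stood at 0.01 in saline. The 4 measured of 36 acinar genes summed to 314.97 and 636.2 in KO, 983.43 and 38.5 in WT, and 11.26 in saline, and Krt8, the 1 duct gene measured of 13, was 244.99 and 283.62 in KO, 352.53 and 142.86 in WT, and 7.78 in saline. For the sums of these 3 lists, as for Postn and Lox, both KO libraries lay between the 2 WT libraries. The same was so for the stellate and fibroblast sum and for the sum of the collagens. The share of all tested genes with this placement was not counted. Over all tested genes, WT replicate 1 was the highest caerulein library for 43.7% and WT replicate 2 the lowest for 52.0%. The acinar sum is mostly Prss3 and Klk1, and single genes differed from the sums. Prss1, another trypsinogen with paralogs, was 6.5 and 12.28 in KO and 0.01 in both WT caerulein libraries. The macrophage-list genes Lyz1, Ly6c2 and Ctss were not highest in WT replicate 1. The endothelial genes Vwf and Cd34, 2 of 17, summed to 76.31 and 37.87 in KO, 41.18 and 58.63 in WT, and 3.21 in saline, and Csf3r, the 1 neutrophil gene measured of 12, was 16.26 and 6.69 in KO, 8.09 and 21.82 in WT, and 0.01 in saline. Csf3r, Vwf and Cd34 all had the order of the replicates seen in Serpine2 in each genotype. How common this order is over all tested genes was not counted. No platelet gene of 9 listed was measured.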

How the data were processed

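Poly(A) RNA of whole pancreas was fragmented, reverse transcribed with random primers and sequenced on an Illumina instrument, per the labels' protocols. Bowtie 0.12.2 and build mm8 are named in the submitters' processing notes; the annotation, counting method and any scaling were not given in the sources used here. Deposited files hold 1 signal value per gene and library, made by the authors in a unit not stated, for 1457 genes and 1 blank row. Low values did not fall on whole-read steps: at the best step 20.5% to 33.3% lay within 0.006 of a multiple (14% to 21.8% by tolerance alone), and with transcript lengths 25.9% to 44.8% (17.9% to 22.5%). Depth is therefore unknown, no counting interval is given, and sums of this selected table are not library depths.

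A count model, planned in case the values were counts, was not used. Values were taken as log2(value + 1) without rescaling. Genes of at least 1 in at least 2 libraries (1429, all 6 members among them) were fitted with limma 3.58.1 in R 4.3.3, 1 mean per group, trended robust empirical Bayes and Benjamini-Hochberg adjustment at 0.05 per comparison; the fit was tested on simulated data. The fit has 2 residual degrees of freedom per gene, both from the caerulein groups. Its empirical Bayes step draws each gene's variance toward a trend over all tested genes. The SEs of the 6 genes were alike, at 0.83 to 0.87 between the genotypes. Their own gaps between the 2 WT libraries ran from 0.84 to 2.32 log2 units. The 11 alternatives planned were other normalizations, filters, pseudocount, variance estimate and samples; 3 were added after seeing the data. Members, lists and tests were chosen with earlier results of these data known. From each pathway list up to 6 measured genes of highest mean were eligible to be named (3 for collagens), and from each marker list up to 4. By profile, the 3 genes nearest to each member and the 5 nearest to their mean were eligible. Pdgfra, Lyz1, Ly6c2 and Itgav were named outside this rule. Of the 6 members 3 had RefSeq promoter entries. Lists of islet, lymphocyte and mesothelial genes had 2, 1 and 1 measured genes, of which 0 passed in either comparison with saline.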

Additional observations from a re-analysis of the deposited data

How the results depend on the processing

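No paired analysis was possible because the caerulein groups share only 1 replicate number in the labels; the block of similar libraries rests on resemblance and is no such pairing. Between knockout and wild-type caerulein, 0 of the 6 genes passed under all 14 alternatives that were run, or those of them in which the gene was tested. Over these the log2 difference stayed below 0 for Fn1 (−2.29 to −0.48), Thbs1 (−1.77 to −0.80) and Tnc (−2.06 to −0.40). For Serpine2 it was −0.01 with quantile normalization, −0.05 with equal sums, −0.03 with median-ratio scaling, and −0.38 to 0.50 with a library left out; for Postn that range was −1.23 to 0.79 and for Lox −1.30 to 1.02, the upper ends without WT replicate 1. Over all genes 0 were called, except 1 with similar libraries joined as a block (Hnrnph1) and 4 without WT replicate 1 (Anxa10, Prss3, Hspd1 and Atp5f1; range 0 to 4), all named after their values were seen.

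Against saline, all log2 differences of the 6 genes stayed above 0. Quantile normalization gave 0 members called in both comparisons, and 6 genes (KO, all lower) and 9 genes (WT, all lower) in place of 863 and 819. Of the pathway genes it called 1 (KO) and 1 (WT), both lower, in place of 29 (KO) and 28 (WT), all higher, and it gave medians of all tested genes of 0.08 (KO) and 0.07 (WT). Equal sums gave 241 (KO) and 267 (WT) genes and 14 (KO) and 16 (WT) pathway genes; Tnc no longer passed in KO (1.09, limma adjusted p = 0.478) or WT (2.40, limma adjusted p = 0.0691), nor Thbs1 in KO (2.56, limma adjusted p = 0.0555). Fitting only the 2 groups compared gave 440 genes in WT. Among genes above 0.01 in all 5 libraries, 542 (KO) and 488 (WT) of 851 were called, with 2 of 2 members in each and 12 (KO) and 11 (WT) of 19 pathway genes. With a library left out, genes called ranged from 29 to 1028 (KO) and 377 to 1080 (WT), members from 0 to 6 (KO) and 6 to 6 (WT), and pathway genes from 4 to 31 (KO) and 22 to 37 (WT); the lowest counts of genes in both comparisons were without KO replicate 1, and the counts without KO replicate 3 were 399 (KO) and 509 (WT) and without WT replicate 1 511 (WT). The fit then has 1 residual degree of freedom, the lone library being assumed to vary like the other group. Quantile normalization and equal sums by construction bring saline to the level of the other libraries; other causes were not tested. The unknown depth and the single saline library limit the precision of every difference from saline.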
